A study of Mus musculus with 6 samples.

Results

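Olfactory receptor genes were examined in 2 cell fractions of mouse olfactory epithelium, ICAM1-positive and ICAM1-negative. The members are all 47 probe sets on the array whose platform gene symbol starts with Olfr and a digit, taken before any filter on signal, out of 45037 non-control probe sets. No symbol started with Or and a digit. Of the 47, 44 carried 1 symbol and stood for 39 genes, and 3 carried 2 symbols and are given apart. The RefSeq gene table of assembly GRCm38.p6 holds 1110 protein-coding genes named Olfr, so the 38 coding genes with a probe set of their own are 3.42% of them, and the remaining member gene, Olfr75-ps1, is a transcribed pseudogene.

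The ICAM1-positive group holds 3 arrays and the ICAM1-negative group 3 arrays. Each of 3 litters of CD1 mice, aged P21, P22 and P24 (postnatal days), gave both a positive and a negative sort with a fluorescent antibody against ICAM1 (CD54), an adhesion protein carried in this tissue by horizontal basal cells and also by endothelial and immune cells. Animals of a litter were pooled. Each litter had its own age, so litter and age cannot be told apart, and both sorts are mixtures of cell types. Values are scaled linear intensities in arbitrary units. The antigen gene Icam1 read 7247, 6817 and 6857 on the ICAM1-positive arrays and 13.0, 16.1 and 33.2 on the ICAM1-negative arrays, which follows the sample titles and goes against the samples' free-text descriptions, where the sorts are named the other way round.

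Olfactory receptors are G protein-coupled receptors that bind odorants on the cilia of olfactory sensory neurons. Each mature neuron expresses 1 receptor gene, from 1 of its 2 alleles, out of a very large family, so any single receptor transcript comes from a small share of the neurons. The family falls into class I genes, which in mice lie in a single cluster on chromosome 7, and the larger class II, which is spread over many chromosomes. The receptors couple to the G protein subunit encoded by Gnal, and need chaperones to reach the cell surface. Choice of a receptor gene depends on enhancers and promoters that carry sites for homeodomain proteins such as Lhx2 and for the O/E (Ebf) factors.

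The sequences upstream of 4 members that fell together in ICAM1-positive cells are shown because such promoters are known for A/T-rich homeodomain sites. They are the 250 bases before the annotated start, from RefSeq (GRCm38.p6), 5′ to 3′ on the gene's strand, with matches to TAATNA on either strand in capitals.
Olfr749, chr14:50744325-50744574, minus strand: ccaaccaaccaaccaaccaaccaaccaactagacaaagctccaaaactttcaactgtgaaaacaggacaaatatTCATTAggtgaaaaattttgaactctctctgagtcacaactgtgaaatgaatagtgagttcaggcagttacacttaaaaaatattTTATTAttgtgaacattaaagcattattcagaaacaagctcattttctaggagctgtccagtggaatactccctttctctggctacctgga
Olfr1509, chr14:52450143-52450392, plus strand: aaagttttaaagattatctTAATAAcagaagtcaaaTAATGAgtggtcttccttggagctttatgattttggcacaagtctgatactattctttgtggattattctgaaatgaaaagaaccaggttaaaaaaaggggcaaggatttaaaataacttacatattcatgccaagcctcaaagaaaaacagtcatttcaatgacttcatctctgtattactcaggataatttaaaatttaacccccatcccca
Olfr1508, chr14:52467462-52467711, minus strand: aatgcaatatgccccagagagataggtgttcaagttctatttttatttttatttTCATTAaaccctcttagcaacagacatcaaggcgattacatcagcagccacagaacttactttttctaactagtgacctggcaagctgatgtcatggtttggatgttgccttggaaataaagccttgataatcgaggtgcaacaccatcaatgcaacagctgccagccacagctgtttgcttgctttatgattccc
Olfr154, chr2:85664456-85664705, minus strand: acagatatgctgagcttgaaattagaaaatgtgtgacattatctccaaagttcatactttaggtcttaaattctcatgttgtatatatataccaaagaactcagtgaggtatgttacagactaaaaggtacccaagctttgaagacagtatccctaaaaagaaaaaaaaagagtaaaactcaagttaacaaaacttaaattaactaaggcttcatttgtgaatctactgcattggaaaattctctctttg
Olfr749 holds 2 matches, Olfr1509 holds 2, Olfr1508 holds 1 and Olfr154 holds 0. A window was listed for 29 of the 39 genes (30 windows). In 10 of these windows the annotated start is an ATG, so they may lie before the coding start rather than the start of transcription. Among the 20 member windows whose annotated start is not an ATG, 8 (40%) held TAATNA on either strand. The share was 66.4% in the 262 such windows of all Olfr genes and 24.3% in the 32851 windows of all genes. The windows of all genes were not limited in this way, and 1915 of them have an ATG at the annotated start. CCCNNGGG, the core of the O/E site, was found in 1 of the 20 (5%), that of Olfr288, against 7.25% of the Olfr windows and 11.8% of all windows. A match is a description of these letters and not a shown binding site.

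Receptor signals were low in ICAM1-positive cells and spread around the middle of the array in ICAM1-negative cells. On the ICAM1-positive arrays 0, 2 and 3 of the 44 probe sets lay above the array median (P21, P22 and P24 litters), against 23, 20 and 23 on the ICAM1-negative arrays. The median receptor intensity was 26.45, 28.35 and 26.3 on the ICAM1-positive arrays, at the 23.6th, 27.4th and 24.6th percentile of all probe sets, and 107.6, 76.7 and 102.2 on the ICAM1-negative arrays, at the 50.8th, 45.9th and 52.1st percentile. No receptor lay above the median on all 3 ICAM1-positive arrays, where 45.8% of all probe sets did. On all 3 ICAM1-negative arrays 20 of 44 did, a share near the 45.8% of all probe sets, so the count there says nothing particular about receptors. Intensities of different probe sets depend on their probes as well as on transcript abundance, so the order of members by signal is used for presentation only.

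**Figure D1:**
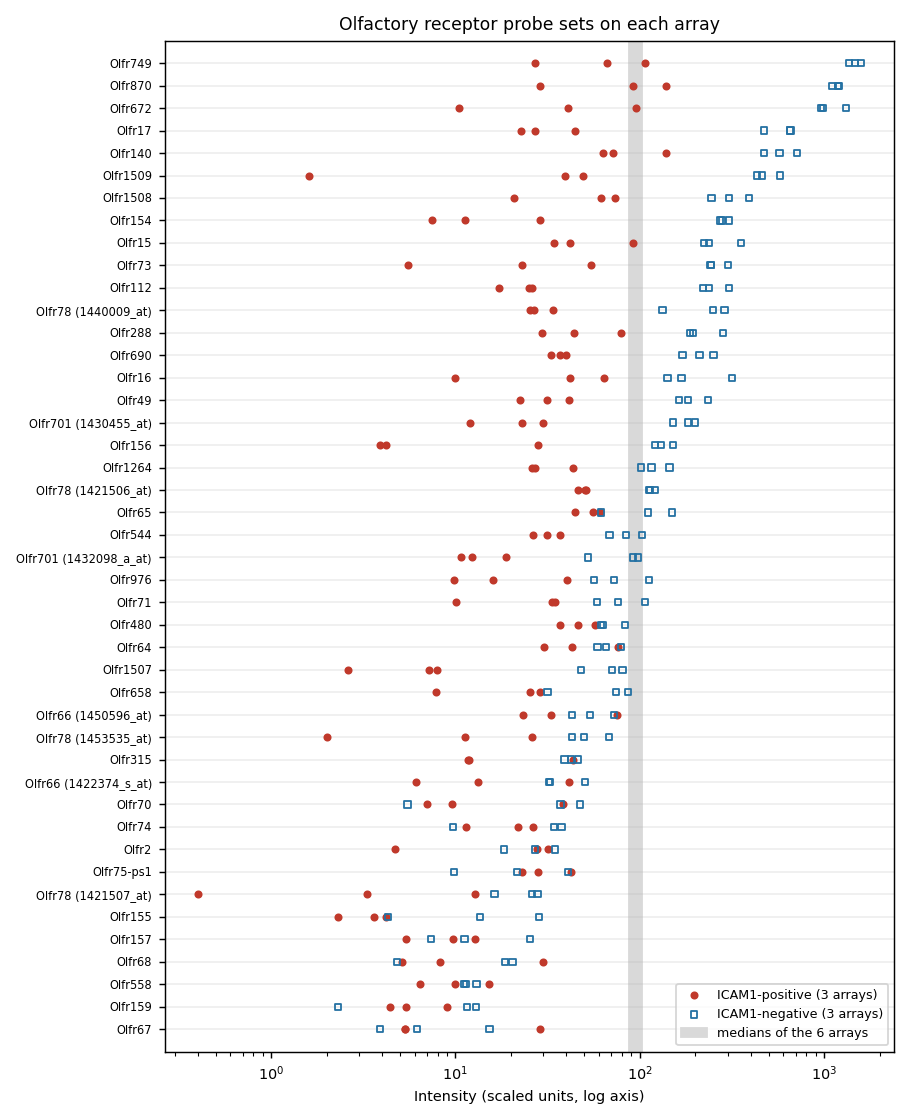
Intensity (log axis, scaled units) of each of the 44 olfactory receptor probe sets with 1 symbol, ordered by mean in ICAM1-negative cells. Filled circles are the 3 ICAM1-positive arrays, open squares the 3 ICAM1-negative arrays, and the grey band spans the medians of the 6 arrays. For 31 probe sets all positive arrays lie left of all negative arrays, and the separation is widest in the upper rows.

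Compared by limma over all 45037 probe sets, 24 of the 44 receptor probe sets were lower in ICAM1-positive cells at an adjusted p below 0.05 and 0 were higher, against 14.2% of all probe sets lower and 13.7% higher. The adjusted p of the 24 ran from 0.000572 to 0.0459, and at an unadjusted p below 0.05 the counts were 30 lower and 0 higher. The share of all probe sets at the unadjusted threshold was not counted, so the 14.2% and 13.7% do not apply to these counts. Without the P21 litter 14 receptors were lower, and over all probe sets 2647 were lower in place of 6405. At the level of single arrays, 31 of 44 had all 3 ICAM1-positive values below all 3 ICAM1-negative values, against 23.5% of all probe sets, and none had the reverse order, against 21.3%. The median log2 difference, positive minus negative, was -2.14 over the receptors and -0.045 over all probe sets, with 42 of 44 differences below 0. In such bulk samples, fewer neurons of a kind and less receptor RNA per neuron cannot be told apart.

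The calls lay mainly among probe sets with signal in ICAM1-negative cells. All 20 probe sets that lay above the median on every ICAM1-negative array fell, as did 3 of the 5 above it on some of these arrays and 1 of the 19 above it on none. This is a description, since a probe set bright on the ICAM1-negative arrays is more likely to differ, and 26.3% of all probe sets chosen in the same way were lower. Differences of dim members have an uncertain size, because the ICAM1-positive side lies near the bottom of the scale. With intensities below the array median raised to that median, 18 of the 44 were still lower, against 15.9% of all probe sets, and the receptor median was -0.061. Those that lost the call were Olfr1507, Olfr1264, Olfr544, Olfr976, 1421506_at of Olfr78 and 1432098_a_at of Olfr701.

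**Figure D2:**
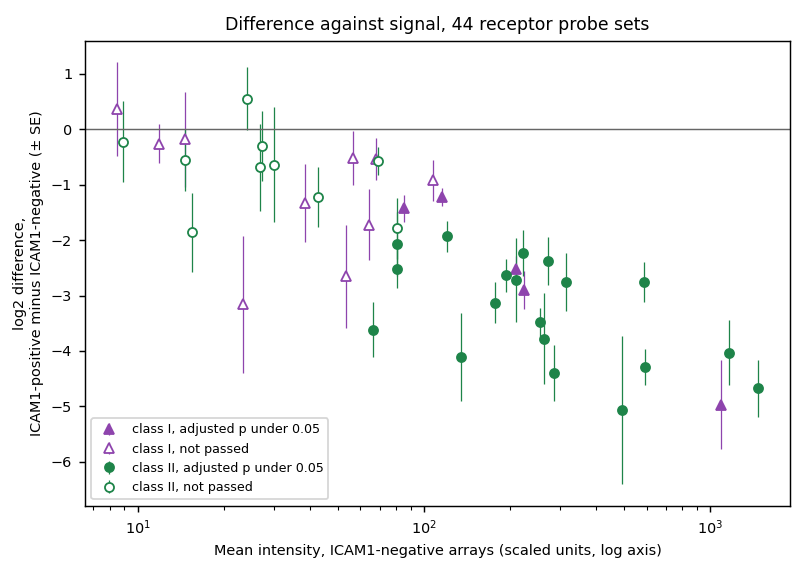
Log2 difference, ICAM1-positive minus ICAM1-negative (± SE), against the mean intensity in ICAM1-negative cells (log axis) for the 44 receptor probe sets. Triangles are class I and circles class II, filled where the adjusted p was below 0.05. The differences run from -5.07 to 0.55, and every probe set with a mean above 110 in ICAM1-negative cells is filled.

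Olfr749, a class II gene on chromosome 14 known as S1 from neurons with tested odour responses, read 27.1, 66.0 and 106.4 on the ICAM1-positive arrays and 1361, 1590 and 1469 on the ICAM1-negative arrays. All ICAM1-negative values lay more than an order of magnitude above all ICAM1-positive values. The log2 difference was -4.68 ± 0.51 (SE, limma adjusted p = 0.00173). With dim values raised to the array median, the ratio of geometric means gave a fall of at least 15.0-fold. Here and below, such folds are least values only as to dim signal, and do not allow for the spread between arrays. Olfr870, a class II gene on chromosome 9, averaged 86.1 ± 54.8 in ICAM1-positive cells and 1167 ± 57.1 in ICAM1-negative cells (SD, n = 3 each), a difference of -4.03 ± 0.59 (adjusted p = 0.00475), and at least 10.7-fold. Its ICAM1-positive values of 91.6 and 138.0 in the P22 and P24 litters were above their array medians, and the value of 28.8 in the P21 litter was far below. Its call was lost without the P22 litter (adjusted p = 0.0605).

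Class I was led in signal by Olfr672, known as S46, which read 10.4, 40.6 and 95.5 in ICAM1-positive cells and 987.1, 1319 and 957.9 in ICAM1-negative cells. The groups stood about an order of magnitude apart even between their nearest arrays. The log2 difference was -4.97 ± 0.80 (adjusted p = 0.00684, and 0.0829 without the P22 litter), or at least 11.2-fold. Olfr17, the P2 receptor used in studies of axon targeting by gene tagging, read 22.6, 27.1 and 44.4 in ICAM1-positive cells and 654.8, 471.3 and 656.7 in ICAM1-negative cells. The groups did not overlap, and the difference of -4.29 ± 0.32 (adjusted p = 0.000595) passed under every alternative run on it. Olfr140, known as A16, read 71.9, 62.8 and 138.6 in ICAM1-positive cells and 712.8, 471.2 and 572.3 in ICAM1-negative cells. The groups did not overlap, with a difference of -2.75 ± 0.36 (adjusted p = 0.00338; 0.0585 without the P21 litter).

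The MOR28 group on chromosome 14, Olfr1509 (MOR83), Olfr1508 (MOR10) and Olfr1507 (MOR28), follow each other with no other gene between them in the RefSeq table, next to the H element, an enhancer known to act on them. Olfr1509 read 39.1, 49.0 and 1.6 in ICAM1-positive cells and 577.7, 462.0 and 434.0 in ICAM1-negative cells. Its difference of -5.07 ± 1.34 was the most negative of the 44 and had the largest SE, with a single value of 1.6 among the ICAM1-positive arrays (adjusted p = 0.039; 0.0601 with litter as a block, and 0.0539 to 0.14 without the P21 or P22 litter, the ICAM1-positive array of P21 or any single ICAM1-negative array). Raising dim values to the array median gave a fall of at least 5.07-fold. Olfr1508 read 20.8, 73.7 and 61.3 in ICAM1-positive cells and 390.0, 305.8 and 245.2 in ICAM1-negative cells, a difference of -2.76 ± 0.53 (adjusted p = 0.0126; 0.0633 without the P22 and 0.0738 without the P24 litter). Olfr1507 lay below the array median on all 6 arrays, at 7.2, 2.6 and 7.9 in ICAM1-positive cells and 70.8, 80.7 and 47.9 in ICAM1-negative cells, and is the sole 1 of the 44 to pass from below the median on every array (-3.62 ± 0.49, adjusted p = 0.00379). In all 3 neighbours every ICAM1-positive value lay below every ICAM1-negative value, while the size of the fall of Olfr1507 has no lower bound here (adjusted p = 0.998 with values raised to the median).

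Olfr73 (mOR-EG), a eugenol receptor, read 5.5, 23.1 and 54.4 in ICAM1-positive cells and 302.2, 243.3 and 241.6 in ICAM1-negative cells (-3.78 ± 0.82, adjusted p = 0.0204; 0.0542 with litter as a block, and 0.0509 to 0.131 without the P21 or P22 litter, the ICAM1-positive array of P22 or any single ICAM1-negative array). The related Olfr74 (mOR-EV), which responds to vanillin-like odorants, was dim in both sorts, at 21.9, 11.4 and 26.5 in ICAM1-positive cells and 37.6, 9.7 and 34.1 in ICAM1-negative cells, and did not pass (-0.30 ± 0.63, adjusted p = 0.774). Olfr16 (MOR23), a lyral receptor also known from sperm, averaged 38.6 ± 27.2 in ICAM1-positive cells and 209.0 ± 94.7 in ICAM1-negative cells (SD, n = 3 each), with the ICAM1-negative array of the P22 litter at 317.2 and the others at 141.4 and 168.5. It passed narrowly (-2.72 ± 0.76, adjusted p = 0.0458), and not after quantile normalization (0.0524) or without any 1 litter, any 1 ICAM1-negative array or the ICAM1-positive array of P22 (0.0689 to 0.188). Olfr2 (I7), the mouse form of the rat octanal receptor, overlapped between sorts at 4.7, 31.7 and 27.7 in ICAM1-positive cells and 34.7, 18.3 and 27.0 in ICAM1-negative cells (adjusted p = 0.583).

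Olfr154, a class II gene on chromosome 2, read 7.5, 11.3 and 28.6 in ICAM1-positive cells and 271.5, 303.7 and 279.9 in ICAM1-negative cells, with the highest ICAM1-negative value 1.12 times the lowest. Its difference was -4.41 ± 0.50 (adjusted p = 0.00202). Olfr112 on chromosome 17, with 26.1, 25.1 and 17.2 in ICAM1-positive cells and 237.8, 304.1 and 219.5 in ICAM1-negative cells, had the smallest adjusted p of the family (-3.49 ± 0.26, adjusted p = 0.000572). Olfr15 (OR3) on chromosome 16 read 41.8, 92.0 and 34.4 in ICAM1-positive cells and 237.6, 222.5 and 353.5 in ICAM1-negative cells (-2.38 ± 0.43, adjusted p = 0.0105). Without the P21 litter (adjusted p = 0.103) or the P24 litter (0.0925) Olfr15 did not pass. Olfr288, Olfr49, Olfr1264 and Olfr976 also fell, with log2 differences of -2.23 ± 0.41, -2.64 ± 0.30, -1.93 ± 0.28 and -2.06 ± 0.58. The calls were lost without the P21 or P22 litter for Olfr288 (adjusted p = 0.0765 and 0.108), without the P24 litter for Olfr1264 (0.0675), and without the P22 or P24 litter or any single array other than the P21 ICAM1-positive one for Olfr976 (0.0775 to 0.187). Olfr315 and Olfr480 did not pass (adjusted p = 0.163 and 0.156), though Olfr315 did without the P24 litter (0.0309) or its ICAM1-positive array (0.00697).

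A group on chromosome 4 holds the OR37 genes, known for neurons confined to a central patch of the epithelium, beside Olfr70 and Olfr71. Of the OR37 genes, Olfr156 (mOR37b) read 4.2, 3.9 and 28.2 in ICAM1-positive cells and 130.6, 120.7 and 151.9 in ICAM1-negative cells. It fell by 4.11 ± 0.80 on the log2 scale (adjusted p = 0.0135), though by at least only 1.39-fold when dim values were raised to the array median. The call ended without the P21 litter (adjusted p = 0.118) or the P22 litter (0.108). Olfr155 (mOR37a), Olfr157 (mOR37c) and Olfr159 (mOR37e) stood between 2.3 and 28.4 on all 6 arrays and did not pass, except Olfr155 without the P22 ICAM1-negative array (adjusted p = 0.0198). Olfr70, at 18.3 ± 17.3 in ICAM1-positive and 30.0 ± 21.8 in ICAM1-negative cells (SD, n = 3 each), did not pass either, but did without the P22 litter (adjusted p = 0.0247). Olfr71, at 26.0 ± 13.8 in ICAM1-positive and 80.4 ± 24.4 in ICAM1-negative cells, did not overlap between sorts but missed the threshold (adjusted p = 0.063, and 0.0387 to 0.0488 with a trended prior, a floor at 16 or a filter at 16).

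Among class I genes, Olfr690 (S18) read 32.8, 39.9 and 36.8 in ICAM1-positive cells and 170.3, 210.6 and 251.0 in ICAM1-negative cells. The groups did not overlap, and the difference was -2.52 ± 0.22 (adjusted p = 0.000881). Olfr544 (S6), a receptor for the dicarboxylic acid azelaic acid, read 31.5, 37.0 and 26.5 in ICAM1-positive cells and 103.1, 68.5 and 84.2 in ICAM1-negative cells (-1.42 ± 0.24, adjusted p = 0.00854; 0.0951 without the P21 and 0.0976 without the P24 litter), with 1 of its 6 values above the array median. Olfr558, a receptor for short-chain fatty acids also known from blood vessels, was near the bottom of the scale throughout, between 6.4 and 15.2 in ICAM1-positive cells and between 11.1 and 13.0 in ICAM1-negative cells. Receptor genes flank the beta-globin genes on chromosome 7, and 4 globin genes lie between Olfr67 and Olfr66. Of these flanking genes Olfr64, Olfr65, Olfr66, Olfr67 and Olfr68 did not pass, apart from Olfr65 without the P22 ICAM1-negative array (adjusted p = 0.0321) and 1 probe set of Olfr66 without the P21 ICAM1-positive array (0.0341). Olfr67 (13.1 ± 13.5 in ICAM1-positive and 8.47 ± 6.03 in ICAM1-negative cells, SD, n = 3 each) was 1 of the 2 probe sets with a difference above 0. The other was the pseudogene Olfr75-ps1, at 31.1 ± 10.1 in ICAM1-positive cells and 24.1 ± 15.7 in ICAM1-negative cells. Both overlapped between sorts.

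Genes with several probe sets gave differing pictures. Olfr78, a class I receptor for lactate and short-chain fatty acids known also from the carotid body, kidney and prostate, had 4 probe sets, and in each of them every ICAM1-positive value lay below every ICAM1-negative value. Probe set 1440009_at read 26.8, 33.8 and 25.5 in ICAM1-positive cells and 288.2, 132.8 and 248.7 in ICAM1-negative cells (-2.90 ± 0.34, adjusted p = 0.00231). Probe set 1421506_at had 49.4 ± 2.55 in ICAM1-positive cells and 115.3 ± 4.67 in ICAM1-negative cells (SD, n = 3 each), a smaller difference with the smallest SE among the 44 (-1.22 ± 0.17, adjusted p = 0.00377; 0.0734 without the P21 and 0.0619 without the P24 litter). The remaining pair, 1453535_at and 1421507_at, averaged 13.1 and 5.47 in ICAM1-positive cells and 53.6 and 23.4 in ICAM1-negative cells, and neither passed (adjusted p = 0.0904 and 0.119), though 1453535_at did without the P24 ICAM1-positive array or with a floor at 16 (0.0397 and 0.0154) and 1421507_at without the P21 ICAM1-positive array (0.0366). Both probe sets of Olfr701, a class II gene, fell. Probe set 1430455_at averaged 21.6 ± 8.94 in ICAM1-positive and 177.5 ± 23.7 in ICAM1-negative cells (-3.13 ± 0.37, adjusted p = 0.00238), and 1432098_a_at averaged 13.97 ± 4.35 in ICAM1-positive and 80.5 ± 24.6 in ICAM1-negative cells (-2.52 ± 0.35, adjusted p = 0.00416; 0.0646 without the P21 and 0.0641 without the P24 litter). Neither probe set of Olfr66 passed (adjusted p = 0.493 for 1450596_at and 0.23 for 1422374_s_at).

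The 3 probe sets shared by 2 genes are not counted above, as their signal cannot be given to 1 gene. That of Olfr151 and Olfr160 (M71 and M72, much used in studies of receptor choice) read 39.7, 18.4 and 23.7 in ICAM1-positive cells and 60.7, 56.4 and 54.3 in ICAM1-negative cells (-1.14 ± 0.32, adjusted p = 0.0459). Of the 2 shared by Olfr69 and Olfr68, 1450592_at fell (-2.52 ± 0.67, adjusted p = 0.0402) and 1422362_s_at did not pass (adjusted p = 0.236). All 3 lay below the array median on all 6 arrays. The calls were lost with values raised to the median (adjusted p = 0.998) and without most single arrays or litters (0.0623 to 0.227), and that of Olfr151 and Olfr160 also with litter as a block (0.0586) or a trended prior (0.0843).

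By class, 5 of 15 class I probe sets and 19 of 29 class II probe sets were lower, with median log2 differences of -1.33 and -2.52. The median intensity over class I probe sets was 28.7 in ICAM1-positive and 64.1 in ICAM1-negative cells, and over class II probe sets 26.0 in ICAM1-positive and 134.4 in ICAM1-negative cells. Whether class mattered beyond signal was not tested. Probe sets whose platform accession is a RefSeq mRNA (16 of 30 lower, median -1.90) and those from an EST or cDNA clone (5 of 10 lower, median -2.14) differed little in these counts. In 4 probe sets no accession was listed, and 3 of them were lower.

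The signal of the brighter receptor probe sets was steady between litters in ICAM1-negative cells. Over the 20 probe sets above the median on each of these arrays, the highest of the 3 values was a median of 1.39 times the lowest, close to the 1.36 of all probe sets chosen that way, and ranged from 1.08 times for 1421506_at of Olfr78 to 2.24 times for Olfr16. Among the dimmer receptor probe sets this ratio ran from 1.17 times for Olfr558 to 8.62 times for Olfr70. The summed intensity of the 44 probe sets was 9688, 9459 and 9322 in the P21, P22 and P24 litters. In ICAM1-positive cells the highest value of the same 20 was a median of 2.68 times the lowest, against 1.41 over all probe sets that were above the median on each ICAM1-negative array and lower in ICAM1-positive cells. The receptor values there were low, with 0, 2 and 3 of the 44 above the array median. Of these 20 the lowest ICAM1-positive array was that of the P21 litter for 11, and the highest was that of the P24 litter for 10.

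Summed over all 44 receptor probe sets, ICAM1-positive signal was 11.7%, 14.2% and 17.0% of ICAM1-negative signal in the P21, P22 and P24 litters. Over the 12 brightest it was 4.54%, 8.50% and 11.0%. These 12 were picked by their ICAM1-negative mean, which by itself favours a low share. The markers of mature neurons were also lower. Over 6 measured genes (Omp, Slc17a6, Ncam2, Kirrel3, S100a5 and Gng13) the shares were 4.65%, 10.7% and 11.7%, with all 6 lower in ICAM1-positive cells and none at 0. Their summed signal was 2085 to 5706 in ICAM1-positive and 44844.5 to 48934.6 in ICAM1-negative cells. For the 8 immature neuron markers, of which 7 fell, the shares were 31.5%, 35.1% and 29.5%. Their sums were 16991.1 to 19375.5 in ICAM1-positive and 48361.1 to 65599.2 in ICAM1-negative cells. Most of the ICAM1-positive sums came from Marcksl1, the immature marker that did not pass (limma adjusted p = 0.349). It read 13260.6, 11412.2 and 12407.6 in ICAM1-positive cells and 10008.3, 8505.5 and 11885.7 in ICAM1-negative cells. Beside the 6 of 6 mature and 7 of 8 immature markers, 14.2% of all probe sets were lower at a limma adjusted p below 0.05. By gene, the median log2 difference was -3.62 over the immature and -3.85 over the mature markers. The shares of summed signal include background signal and are not cell fractions, and the part of neuron content in the receptor differences was not tested.

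**Figure D3:**
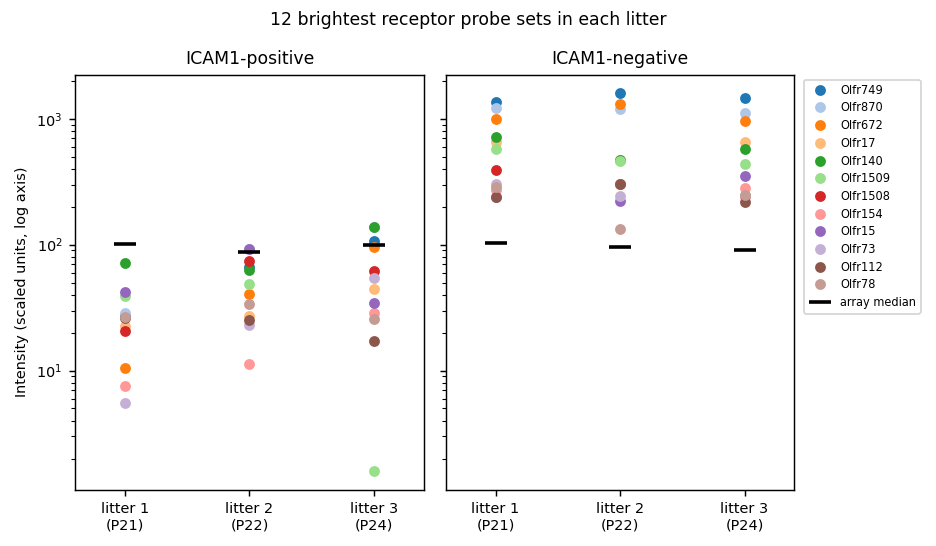
Intensity (log axis, scaled units) of the 12 receptor probe sets with the highest mean in ICAM1-negative cells, by litter and age, in ICAM1-positive cells (left) and ICAM1-negative cells (right). Bars mark the array median. The left panel holds values from 1.6 to 138.6, and all values in the right panel lie above the array median, from 132.8 to 1590.

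Most of the measured genes that act with the receptors were lower as well. At a limma adjusted p below 0.05, 14.2% of all probe sets were lower and 13.7% higher. Of 12 measured genes of odorant transduction 11 were lower in ICAM1-positive cells and 0 higher (11 and 0 at an unadjusted p below 0.05), with a median log2 difference of -3.24. They include Cnga2, a subunit of the cyclic nucleotide-gated channel (914.0 ± 359.7 in ICAM1-positive and 13411 ± 1371 in ICAM1-negative cells, SD, n = 3 each), and Adcy3, the adenylyl cyclase (-3.19 ± 0.25, adjusted p = 0.000635). Cngb1, another channel subunit, was dim in both sorts and did not pass (adjusted p = 0.906). Of 12 measured genes of receptor chaperones and receptor choice, 9 were lower and 1 higher, with a median of -3.50. The 9 were Lhx2, Emx2, Ebf1, Ebf2, Ebf3, Ebf4, Kdm1a, Atf5 and Eif2ak3, none of them a chaperone gene. Ldb1 did not pass (-0.96 ± 0.34, adjusted p = 0.0932). Lhx2, a homeodomain factor, and Ebf1, an O/E factor, differed by -4.04 ± 0.44 and -4.56 ± 0.41. Lbr, the lamin B receptor, known to be lost as olfactory neurons form and their receptor genes gather in the nucleus, was the gene that was higher (0.99 ± 0.18, adjusted p = 0.0114). Reep1, a receptor transport protein, was the sole chaperone gene measured. It read 3375, 3600 and 3185 in ICAM1-positive cells and 3085, 2974 and 3841 in ICAM1-negative cells and did not pass (adjusted p = 0.895). The chaperone genes Rtp1 and Rtp2 had no probe set with a single symbol here.

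Chemoreceptor families of other organs did not share this pattern in their counts. Of 26 probe sets of vomeronasal type 1 receptors, which detect pheromones, 2 were lower and 1 was higher, with a median log2 difference of -0.012. Over all probe sets 14.2% were lower and 13.7% higher. The lower ones were Vmn1r171 (-2.37 ± 0.56, limma adjusted p = 0.0269) and Vmn1r42 (-1.63 ± 0.29, adjusted p = 0.0103). Neither overlapped between sorts. Vmn1r29, the one that was higher, lay between 15.3 and 19.4 in ICAM1-positive cells and between 0.8 and 3.5 in ICAM1-negative cells, all far below the array medians. Of 8 type 2 probe sets 0 passed by limma (1 lower at an unadjusted p below 0.05), with a median of 0.32. For both families the signal was low in both sorts. The medians were 9.17 in ICAM1-positive and 8.18 in ICAM1-negative cells for type 1. For type 2 they were 15.5 in ICAM1-positive and 12.6 in ICAM1-negative cells. Dim olfactory receptors also seldom passed, with 1 lower of the 19 above the median on no ICAM1-negative array. Whether the families differ at like signal was not tested. The trace amine receptor gene Taar1 (27.0 ± 10.9 in ICAM1-positive and 46.4 ± 6.86 in ICAM1-negative cells, SD, n = 3 each), the 3 bitter taste receptor probe sets and Fpr2, of the formyl peptide receptors, did not pass. Taar1 did not overlap between sorts, its ICAM1-positive values being the lower ones.

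**Figure D4:**
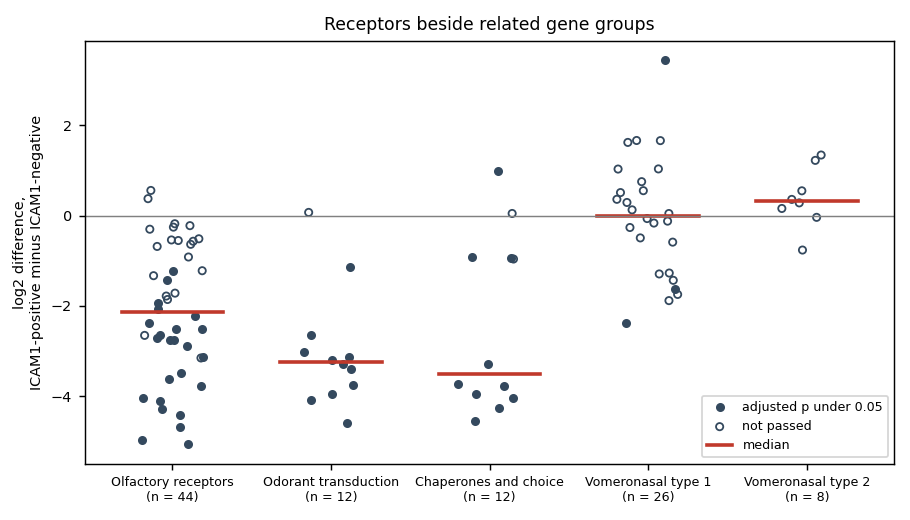
Log2 difference, ICAM1-positive minus ICAM1-negative, of each probe set or gene in 5 groups. Points are filled where the adjusted p was below 0.05 and red bars are medians. Transduction, chaperone and choice genes are each shown by their probe set with the highest mean, and the receptor families by every probe set, dim ones included. The receptor median of -2.14 lies between those of the transduction genes (-3.24) and the vomeronasal groups (-0.012 and 0.32), which were not matched for signal.

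In the same arrays the markers of horizontal basal cells (5 of 5 genes, summed 73320.2 to 78769.5 in ICAM1-positive and 217.6 to 630.5 in ICAM1-negative cells) and of macrophages (6 of 6, summed 15700.7 to 20429 in ICAM1-positive and 877.9 to 1058 in ICAM1-negative cells) were higher. At a limma adjusted p below 0.05, 13.7% of all probe sets were higher. Of 4 sustentacular markers 1 was higher and 3 did not pass, with sums of 38236.5 to 54287 in ICAM1-positive and 27020.6 to 46500.2 in ICAM1-negative cells. Their part in the receptor differences was not tested.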

How the data were processed

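RNA of sorted cells was extracted with TRIzol, amplified in 2 rounds and hybridised to Affymetrix mouse arrays, per the labels' protocols. The authors deposited linear intensities with 1 decimal, whereas the submitters' processing notes name GCRMA, which gives log2 values. The mean after trimming 2% from each end was 496.4 to 497.1 on every array over non-control and control probe sets, so the deposited intensity values were read as scaled linear signals. The program behind them was not given in the sources used here, nor were detection calls. After removal of 64 control probe sets, 45037 were transformed to log2 and compared between sorts by lmFit and eBayes of limma 3.58.1 (R 4.3.3), with no filter on signal, with Benjamini-Hochberg adjustment over all of them and a threshold of 0.05. No filter was used because one met by 3 arrays can be passed through 1 sort alone. Of the 44 receptor probe sets, 39 would pass intensity above 16 on 3 arrays.

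Litters pair the sorts per the labels. Same-litter arrays had deviations from their group means that correlated at 0.09, 0.15 and 0.05, and a fit with litter as a block was an alternative. Gene names came from the platform table (34945 probe sets with 1 gene, 932 with several, 9160 with none), and all 39 receptor genes matched the RefSeq table. Class I was read from receptor family numbers up to 42 among the synonyms. Olfr16 and Olfr49, without such a number, were taken as class II since they are not on chromosome 7. A gene of the other lists was represented by its probe set with the highest mean. Named receptors were the 12 with the highest ICAM1-negative mean, the 10 largest differences that passed without overlap and with the brighter sort above the median, any that were higher, and all genes with several probe sets. Others are named as further members of a described group, chosen after their values were seen. The members and lists were chosen with earlier results of these data known. The number of arrays limits the precision, and p-values rest on the spread between 3 litters.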

Additional observations from a re-analysis of the deposited data

How the results depend on the processing

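The direction of the receptor difference held under every alternative run, with 0 receptor probe sets higher by limma in each. The count lower was 24, and was 14 without the P21 litter (replicate 1) and 26 with intensities below 16 raised to 16. Leaving out a whole litter gave 14 to 17, a single array 20 to 25. A replicate block for litter left 22 lower, as Olfr1509 and Olfr73 lost their calls (adjusted p = 0.0601 and 0.0542), and so did the probe set shared by Olfr151 and Olfr160 (0.0586). Keeping probe sets with a mean above the median of all left 8 members, of which 8 were lower. Among all probe sets kept in this way, 6507 of 22518 were lower. That mean is over all 6 arrays, so a member can pass through high ICAM1-negative values alone. The filter thus favoured members that were lower, and the count of 8 is no further support. Under every fit that tested them, 8 probe sets were lower: those of Olfr749, Olfr17, Olfr154, Olfr112, Olfr690 and Olfr49, 1440009_at of Olfr78 and 1430455_at of Olfr701. The median log2 difference of -2.14 became -2.52 with a filter at intensity 16, -3.40 with the filter on the mean, -0.061 with values raised to the array median and -1.69 with values raised to 16. It ranged from -2.46 to -1.86 without single litters. Fewer and brighter members, or compressed low values, produce the shifts with a filter or with raised values by construction. The fits without a litter kept all 44 members and raised no values, so their shifts show dependence on single litters. Above the upper quartile in place of the median, 3 receptors remained on all ICAM1-negative arrays. Low signal over background limits the size of every fall in dim members.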
